A study of Mus musculus with 22 samples.

Results

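The data described here compare changes in astrocyte gene expression between 7 and 30 days after microbead injection, which raises intraocular pressure (IOP). By the study, IOP was near its peak at 7 days and declining by 30 days. The data cover the optic nerve head (ONH), the unmyelinated start of the nerve behind the eye. The change there is set against that in the optic nerve proper (ONP), the myelinated nerve that follows it. The quantity is the interaction of region and day: the ONP log2FC for 30 vs 7 days minus the ONH log2FC for 30 vs 7 days. All 22 libraries of the series entered it (4 of the ONH and 4 of the ONP at 7 days, 7 of each at 30 days), and 16748 of the 29367 genes in the table had enough counts to be tested. A positive value means that a gene rose more, or fell less, in the ONP, and a negative value means the reverse.

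Each library was made from mRNA bound to HA-tagged ribosomes. The mice were homozygous for the Rpl22-HA allele (B6J.129(Cg)-Rpl22tm1.1Psam/SjJ) and carried a GFAP-Cre transgene (B6.Cg-Tg, line 73.12Mvs/J), so the tag marks cells in which the mouse Gfap promoter has driven Cre, and every group carried both alleles. All mice were 3 to 4 months old and all had microbeads injected into the eye, which slow the outflow of aqueous humor, so that the groups differ in region and day only and no uninjured group was analysed here. Cre was not induced at a chosen time, so the tag is kept by any cell whose lineage once used the promoter. Each library pooled tissue of 4 mice, 2 male and 2 female. By the methods, ONH and ONP tissue was cut from the same animals. At 30 days libraries of both regions have the replicate numbers 1 to 7, which are not stated to mark a shared pool. The 7 day libraries carry numbers that could be tied to their region and day only, and they are named below by those numbers (1, 3, 5 and 6 for the ONH, 1, 2, 5 and 6 for the ONP). Libraries held 16292489 to 33307092 counts.

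Astrocytes of the ONH ensheathe bundles of unmyelinated axons and, in mice, form the glial lamina at the site where glaucoma first injures the nerve. Astrocytes of the ONP share their tissue with oligodendrocytes, which wrap axons in a cholesterol-rich myelin sheath. Both take up potassium and glutamate, supply lipids and metabolites, and alter their expression when axons are injured. The comparison asks whether the time course after microbead injection is the same in both regions.

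The interaction was called for 96 genes at an adjusted p-value under 0.05, which is 0.573% of the genes tested. In 26 of them (0.155%) the change was more positive in the ONP, and in 70 (0.418%) it was more negative in the ONP. At an unadjusted p-value under 0.05 within each region, which 23.2% of all genes passed in the ONP and 20.4% in the ONH, 53 of the 96 genes moved in the ONP alone, 38 in both regions and 5 in the ONH alone. The ONP log2FC was below 0 in all 70 negative genes and above 0 in all 26 positive genes. The contrast contains both changes, so these counts describe the called genes and are not separate evidence. Among the positive genes without a group at the detection limit (24 genes), medians were 1.82 for the ONP log2FC and -0.67 for the ONH log2FC. Among the negative genes without such a group (67 genes), the ONP median was -1.02 and the ONH median 0.31. Over all genes tested the median interaction was 0.011, with an interquartile range of -0.35 to 0.39, and 50.9% of the values lay above 0.

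**Figure D1:**
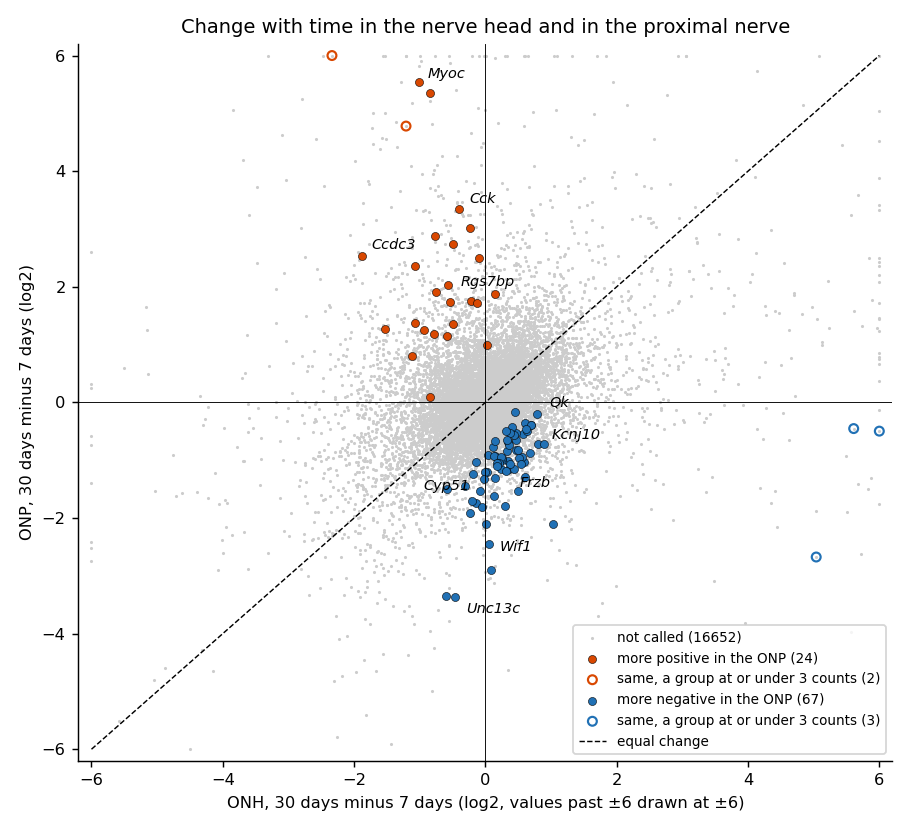
Each point is a gene, placed by its log2FC for 30 vs 7 days in the ONH (x axis) and in the ONP (y axis), both from the fit over all 22 libraries and drawn at ±6 where they lie beyond it. Grey points are the 16652 genes without a called interaction, orange and blue points the called genes above and below the dashed line of equal change, and open circles the 5 called genes with a group at or below 3 counts in every library, whose fitted values depend on the prior count. Called genes lie mostly in the upper left and lower right corners, where the changes of the regions have opposite signs.

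The split between directions depended on the scaling. When counts were scaled by library size alone, without TMM factors, the median interaction of all genes moved up by 0.152, and 68 genes were called, 36 positive and 32 negative. Longer transcripts were common among the negative genes: 39 of the 70 lay in the top 20% of genes by transcript length (5099 bases or more), in which the median interaction was -0.148 over 3349 genes. The median length of the longest annotated transcript was 5565.5 bases in the negative genes, 2832 bases in the positive genes and 3223 bases in all genes tested. The part of transcript length in the result was not tested.

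The number of calls also depended on single libraries. It fell to 22, 23 and 25 without ONP 7 day libraries 2, 1 and 6, to 33, 39, 42, 58 and 59 without ONP 30 day replicates 6, 3, 1, 2 and 4, to 36 and 62 without ONH 7 day libraries 1 and 3, and to 51 and 63 without ONH 30 day replicates 2 and 6. It rose to 322 without ONH 7 day library 5 and to 145 without ONP 30 day replicate 5. Every 1 of the 96 genes kept its sign in all 22 of these fits, while 15 genes were called in all of them: Ccdc3, Cck and Rgs7bp among the positive genes, and Ccp110, Clmn, Cyp51, Dst, Fam189b, Frzb, Mgarp, Qk, Rph3a, Scaf11, Unc13c and Wif1 among the negative genes. The genes were called from these same libraries, and each fit keeps all but 1 of them, so kept signs are not separate evidence.

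**Figure D2:**
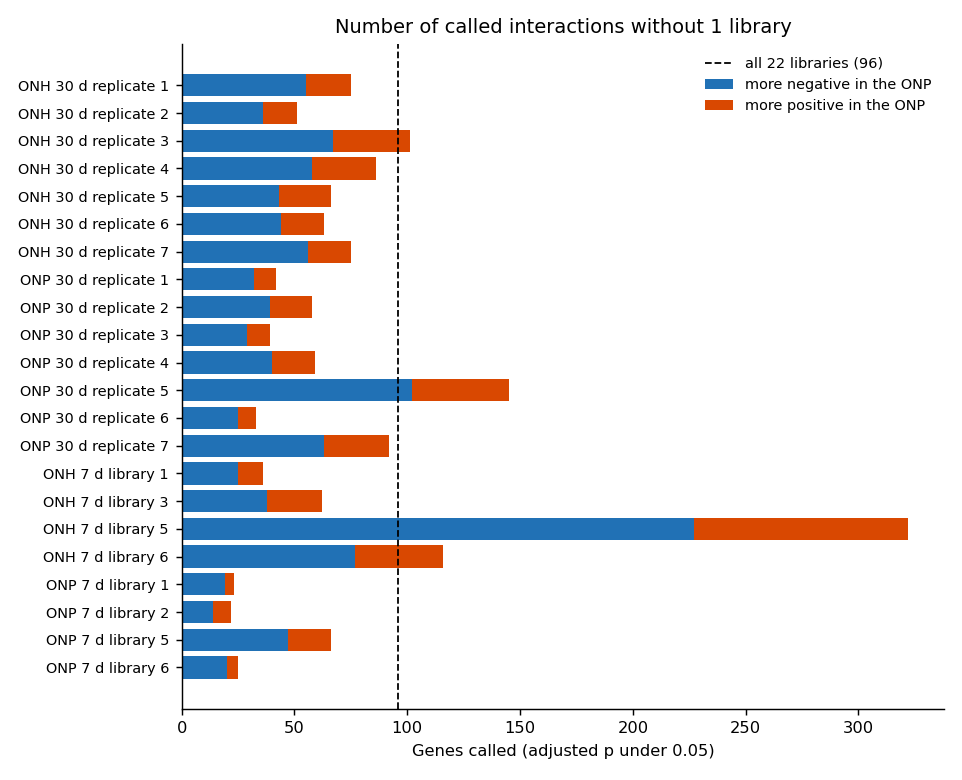
Bars give the number of genes called (x axis, adjusted p-value under 0.05) when the library named on the y axis was left out, split into genes more negative (blue) and more positive (orange) in the ONP. The dashed line marks the 96 calls of all 22 libraries. Counts range from 22 without ONP 7 day library 2 to 322 without ONH 7 day library 5.

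Many of the called genes changed in opposite directions in the regions. A test of the difference between the changes favors opposite signs, so the counts below describe the called genes and are not separate evidence. The changes had opposite signs in 81 of the 96 called genes, against 38.2% of all genes tested, and in 36 (10 positive, 26 negative) both changes had an unadjusted p-value under 0.05. Over all genes tested, opposite changes of this kind occurred in 138 genes (0.824%). In 2 genes, Ccdc3 and Kcnj10, both changes also passed an adjusted p-value of 0.05. The remaining 15 called genes changed with the same sign in both regions and more strongly in the ONP, and none changed with the same sign and more strongly in the ONH.

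Ccdc3, which encodes a secreted coiled-coil protein, had the largest interaction among genes with opposite changes and no group at the detection limit. In CPM (counts scaled to the total of the library after TMM normalization), its level in the 7 day ONH was 9, 6.79, 9.81 and 4.21 in libraries 1, 3, 5 and 6, and in the 30 day ONH it ranged from 0.27 to 4.73 with a median of 1.9. In the ONP it was 9.81, 6.05, 22.3 and 9.86 at 7 days and 43.5 to 100 with a median of 62 at 30 days. All 30 day ONP libraries were thus above all 7 day ONP libraries, while the days overlapped in the ONH. The log2FC was -1.88 ± 0.44 (SE) in the ONH and 2.52 ± 0.48 in the ONP, with an interaction of 4.41 ± 0.65 (adjusted p = 0.00371; chr2:5137776-5230878, GRCm38).

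Rgs7bp, which anchors regulators of G protein signaling at the membrane, had the smallest p-value. Its 7 day ONH levels were 9.43, 6.43, 14.3 and 12.3 CPM, against 4.91 to 9.62 CPM (median 6.95) at 30 days. Its 7 day ONP levels were 3.62, 2.16, 4.56 and 2.62 CPM, against 9.28 to 18.5 CPM (median 11.8) at 30 days. At 7 days the ONP was lower than the ONH and at 30 days it was higher, so that the order of the regions turned. The log2FC was -0.57 ± 0.25 in the ONH and 2.04 ± 0.28 in the ONP, an interaction of 2.61 ± 0.37 (adjusted p = 0.00371; chr13:104945904-105054930).

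Among the genes that rose in the ONH and fell in the ONP, Frzb had the smallest p-value. It encodes a secreted antagonist that binds Wnt ligands. Its level in the 7 day ONH was 26.7, 29.2, 24.3 and 20.8 CPM and in the 30 day ONH 23.5 to 45.2 CPM (median 30.7). In the ONP it was 25.5, 31.6, 27.8 and 27.6 CPM at 7 days and 11.6 to 14.6 CPM (median 12.4) at 30 days. The log2 difference between the regions was 0.15 at 7 days and -1.35 at 30 days, where no ONP library reached the lowest ONH library. The interaction was -1.51 ± 0.22 (adjusted p = 0.00371; chr2:80411970-80447625).

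Kcnj10, the inwardly rectifying channel Kir4.1 with which astrocytes and oligodendrocytes clear potassium, rose in the ONH and fell in the ONP. Its 7 day ONH levels were 119, 171, 208 and 117 CPM and its 30 day ONH levels 181 to 350 CPM (median 272). In the ONP it went from 297, 285, 221 and 270 CPM to 134 to 234 CPM (median 149), with 1 30 day library inside the 7 day range. The log2FC was 0.80 ± 0.20 in the ONH and -0.72 ± 0.20 in the ONP, an interaction of -1.52 ± 0.28 (adjusted p = 0.0168). This call was kept in 19 of the 22 fits without 1 library and was lost, with the highest adjusted p of 0.0576, without ONP 7 day library 2.

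The other opposite changes named by p-value all had the sign of Frzb. Clmn (calmin, an actin-binding protein) rose from 9.81 to 18.8 CPM in the 7 day ONH to 15.7 to 28.7 CPM at 30 days and fell from 38.6 to 61.2 CPM to 12.5 to 26.6 CPM in the ONP, an interaction of -1.90 ± 0.31. Ccp110, a centriolar protein that restrains ciliogenesis, went from 12.2 to 28.6 CPM to 21.6 to 42.1 CPM in the ONH and from 92 to 130 CPM to 33 to 59.1 CPM in the ONP, an interaction of -1.59 ± 0.29. For both genes the 7 day ONP stood above every other library. The interactions were -1.03 ± 0.18 for the splicing-related gene Scaf11, -1.11 ± 0.20 for the myosin phosphatase subunit Ppp1r12a, -1.12 ± 0.21 for Tulp4 and -1.12 ± 0.22 for the desumoylating peptidase Desi1. Calls of Ppp1r12a, Tulp4 and Desi1 were kept in 20, 19 and 18 of the 22 fits without 1 library.

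Genes that rose in the ONP included several that were scarce in the ONP at 7 days. Cck encodes the neuropeptide cholecystokinin. Its 7 day ONP levels were 2.39, 2.1, 2.79 and 1.39 CPM, and its 30 day levels were 10.7 to 30.3 CPM (median 25.3). In the ONH it was 6.41, 2.42, 17.6 and 7.52 CPM at 7 days and 3.13 to 10.9 CPM (median 6.29) at 30 days. The ONP days were separate and the ONH days overlapped. The ONP log2FC was 3.35 ± 0.48 and the ONH log2FC -0.41 ± 0.40, and the interaction was 3.76 ± 0.60 (adjusted p = 0.00507; chr9:121489824-121495694).

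Myoc, the gene of myocilin, in which coding variants cause inherited open-angle glaucoma, had the largest interaction of the genes above the detection limit. It was at 0, 0.191, 1.27 and 0 CPM in ONP 7 day libraries 1, 2, 5 and 6 and at 3.8 to 32.6 CPM (median 18.7) in the 30 day ONP. In the ONH it was 0.431, 1.02, 6.39 and 5.16 CPM at 7 days and 0.36 to 4.61 CPM (median 1.12) at 30 days. The ONP alone showed separate days. The fitted interaction was 6.56 ± 1.32 (adjusted p = 0.0276), and it ranged from 5.99 to 9.29 when single libraries were left out, with the call kept in 19 of 22 fits and the highest adjusted p of 0.0823 without ONP 7 day library 2.

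Pax8 encodes a paired-box transcription factor. It was at 0 in ONP 7 day libraries 1, 2 and 6 and at 0.657 CPM in library 5, against 2 to 12.6 CPM (median 8.5) at 30 days. In the ONH the 7 day libraries differed widely, with 15.1, 5.03, 0.628 and 0.729 CPM, and the 30 day libraries held 1 to 6.73 CPM (median 2.63). A count of 0 in these ONP libraries allows up to 0.184, 0.191 and 0.112 CPM (3 counts, counting error only). The fitted interaction was 6.20 ± 1.30 (adjusted p = 0.0312). It moved between 4.93 and 11.19 without single libraries, and the call was kept in 15 of the 22 fits, with the highest adjusted p of 0.0892 without ONP 7 day library 6.

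Further positive genes with small p-values also rose in the ONP. Nt5dc2 went from 24.4 to 36.1 CPM to 65.7 to 137 CPM in the ONP, with an ONH range of 32.1 to 57.4 CPM at 7 days and 10.4 to 45.9 CPM at 30 days, an interaction of 2.26 ± 0.42. The secreted peptide precursor gene 1500015O10Rik went from 0.45 to 1.34 CPM to 2.6 to 13.9 CPM in the ONP and had an interaction of 3.26 ± 0.64. Rasgrf1, an exchange factor for Ras, had an interaction of 1.73 ± 0.36 and the long non-coding RNA gene C230072F16Rik 3.23 ± 0.66. The calls of these 4 genes were lost without ONP 7 day library 2 (Nt5dc2, adjusted p = 0.0576) or had their highest adjusted p without ONP 7 day library 6 (0.0728, 0.0794 and 0.0794).

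Further positive genes, named here by their known roles after their values were seen, included the adenosine receptor gene Adora2b (2.45), the insulin-like growth factor binding protein gene Igfbp4 (2.80), the monoamine oxidase gene Maob (1.85) and the nuclear receptor gene Nr2e1 (1.97). Igfbp4 fell in the ONH, from a mean of 145 to 50 CPM, and rose in the ONP from 10.5 to 25.4 CPM. Maob was nearly level in the ONH (13.8 to 12.6 CPM) and rose in the ONP (15.7 to 51.7 CPM). Calls of Adora2b, Igfbp4, Maob and Nr2e1 were kept in 12, 10, 4 and 9 of the 22 fits without 1 library. Socs2, a brake on cytokine signaling, went from a mean of 12.9 to 7.46 CPM in the ONH and from 2.97 to 6.74 CPM in the ONP, and the adhesion gene Nectin3 from 48.3 to 25.3 CPM and from 16.2 to 38.7 CPM. For both genes the ONH fell and the ONP rose, with calls kept in 17 and 4 of the 22 fits without 1 library.

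**Figure D3:**
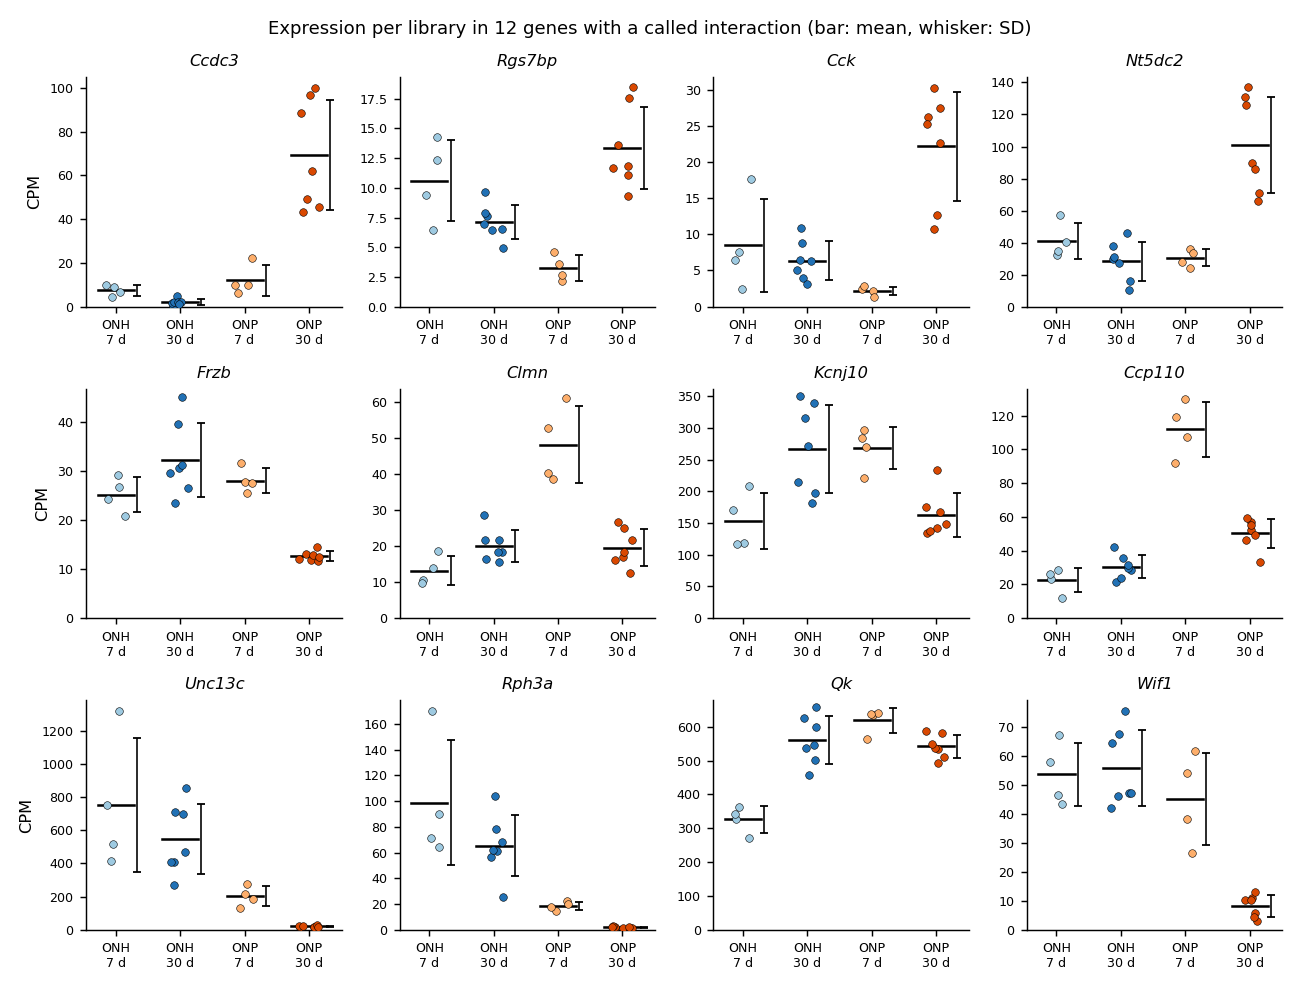
CPM per library (y axis, from 0) for 12 called genes in the 4 groups (x axis), with the group mean as a bar and the SD as a whisker. In the top row, group means are highest in the 30 day ONP (Ccdc3 43.5 to 100 CPM). In the middle row levels fall in the ONP and rise in the ONH, and in the bottom row Unc13c, Rph3a and Wif1 fall in the ONP while Qk rises in the ONH.

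The steepest falls in the ONP among called genes were in 2 genes of vesicle release. Unc13c encodes a protein that primes vesicles for fusion. Its level in the 7 day ONP was 275, 217, 186 and 132 CPM and in the 30 day ONP 14.4 to 27.3 CPM (median 18.3). In the ONH it was 1320, 414, 754 and 519 CPM at 7 days and 270 to 857 CPM (median 471) at 30 days. The ONP fell by far more than its spread, and the ONH days overlapped. The ONP log2FC was -3.37 ± 0.30 and the ONH log2FC -0.46 ± 0.30, an interaction of -2.91 ± 0.44 (adjusted p = 0.00371; chr9:73479422-73968966).

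Rph3a encodes the Rab3 effector rabphilin. In the ONP it was 22, 14.7, 19.9 and 17.3 CPM at 7 days and 1.12 to 2.59 CPM (median 1.84) at 30 days. In the ONH it was 170, 64.2, 89.8 and 71 CPM at 7 days and 25.3 to 104 CPM (median 62.3) at 30 days. Both regions fell, and the gap between them widened from -2.42 at 7 days to -5.18 at 30 days on the log2 scale. The interaction was -2.76 ± 0.42 (adjusted p = 0.00424; chr5:120940499-121010092).

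The gene lists here and below were chosen with earlier results of these data known. Their shares of called genes therefore describe them and are not separate evidence. The list of synaptic vesicle and exocytosis genes was split in direction. Of its 40 tested members 4 were called (10%, against 0.573% of all genes), all negative (Unc13c, Rph3a, Sv2a and Sv2b). Above 0 lay 20 members and below it 20. The median interaction was -0.019, which turned positive under library-size scaling (0.13). The vesicle glycoprotein gene Sv2a rose in the ONH, from 46.9, 47.9, 85.3 and 81.2 CPM to 67.7 to 138 CPM (median 93.9), and fell in the ONP, from 197, 275, 235 and 327 CPM to 79.8 to 210 CPM (median 125), an interaction of -1.50 ± 0.33. Its relative Sv2b fell in the ONP from 12.2, 11.2, 12.2 and 13.3 CPM to 2.39 to 5.59 CPM (median 4.41), an interaction of -1.75 ± 0.39. Both calls were kept in 6 of the 22 fits without 1 library, with the highest adjusted p of 0.134 without ONP 7 day library 6. Uncalled members past an unadjusted p of 0.05 included Syt11 (-0.73) and Syn2 (1.77). Synpr, which encodes the vesicle protein synaptoporin and is not on the list, fell in the ONP from 11.2, 9.23, 7.55 and 8.21 CPM to 0.788 to 4.14 CPM and rose in the ONH from 0.897 to 4.28 CPM to 2.33 to 10.2 CPM, an interaction of -3.13 ± 0.67.

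Cholesterol genes had lower 30 day levels in the ONP and level medians in the ONH. In astrocytes and oligodendrocytes, sterols are made from acetyl-CoA through mevalonate and lanosterol, and the genes of the enzymes are turned on together when membrane sterol is low. Of the 24 tested members of the cholesterol synthesis and uptake list, 3 were called, all negative (12.5%, against 0.573% of all genes). A further 15 had an unadjusted p under 0.05, also negative, and 23 of 24 lay below 0. The median log2FC of the list was -0.02 in the ONH and -0.70 in the ONP, and the median interaction was -0.80, ranging from -0.85 to -0.65 when single libraries were left out. Over all genes, 1175 of 16748 had a negative interaction with an unadjusted p under 0.05.

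Acat2 is a cytosolic thiolase that joins acetyl-CoA units, Mvd is mevalonate diphosphate decarboxylase, and Cyp51 is lanosterol demethylase. Their promoters, from 250 bases before to 50 bases after the annotated start, are shown because these genes fell together. Sequences are from RefSeq (GRCm38.p6), given 5′ to 3′ on the minus strand on which all 3 genes lie. Capitals mark the CCAAT box (CCAAT) and the GC box (GGGCGG), searched on both strands, so that ATTGG and CCGCCC are the same motifs on the other strand.
Cyp51 (chr5:4104648-4104947): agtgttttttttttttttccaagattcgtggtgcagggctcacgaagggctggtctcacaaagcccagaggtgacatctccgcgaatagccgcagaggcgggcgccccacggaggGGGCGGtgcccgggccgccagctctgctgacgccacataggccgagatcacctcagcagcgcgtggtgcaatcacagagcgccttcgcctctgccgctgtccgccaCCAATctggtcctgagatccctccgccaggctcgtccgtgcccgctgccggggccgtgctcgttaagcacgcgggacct
Mvd (chr8:122443373-122443672): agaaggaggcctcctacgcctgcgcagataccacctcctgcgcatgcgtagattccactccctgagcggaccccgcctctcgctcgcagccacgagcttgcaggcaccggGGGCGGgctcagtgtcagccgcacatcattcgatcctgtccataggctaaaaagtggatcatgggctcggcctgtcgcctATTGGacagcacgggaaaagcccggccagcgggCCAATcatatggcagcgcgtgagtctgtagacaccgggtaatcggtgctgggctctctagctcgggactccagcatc
Acat2 (chr17:12960676-12960975): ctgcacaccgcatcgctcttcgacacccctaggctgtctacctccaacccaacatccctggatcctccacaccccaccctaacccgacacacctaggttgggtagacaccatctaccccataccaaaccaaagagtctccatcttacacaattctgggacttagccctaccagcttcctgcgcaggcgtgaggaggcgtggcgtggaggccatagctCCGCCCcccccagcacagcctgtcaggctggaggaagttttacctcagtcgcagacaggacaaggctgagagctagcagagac

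A CCAAT box was found in the windows of Cyp51 (1 match) and Mvd (2 matches) and a GC box in all 3 windows. Among all 32851 promoter windows of the same length, 37.4% held a CCAAT box and 35.7% a GC box. The classical sterol response element TCACNCCA, held by 4.36% of all windows, was in none of these 3. Promoter windows were at hand for 17 of the 24 tested cholesterol genes. Of these genes, 16, 16 and 3 held the CCAAT box, the GC box and the sterol element in any of their windows. These are counts of genes, while the shares above are of single windows. A match is a description of these letters and not a measured binding site.

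Cyp51 had the smallest p-value of the list. In the ONP it was 434, 473, 389 and 466 CPM at 7 days and 123 to 224 CPM (median 202) at 30 days. In the ONH it was 101, 81, 113 and 119 CPM at 7 days and 88 to 123 CPM (median 104) at 30 days. The ONP days were far apart and the ONH days were alike, so that the excess of the ONP over the ONH narrowed from 2.09 to 0.86 on the log2 scale. The interaction was -1.23 ± 0.20 (adjusted p = 0.00534; chr5:4081145-4104746), with a log2FC of 0.03 ± 0.14 in the ONH and -1.20 ± 0.14 in the ONP.

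Mvd went in the ONP from 120, 109, 127 and 135 CPM to 48.5 to 79.9 CPM (median 61.9) and in the ONH from 21.5, 35.3, 46.2 and 38.9 CPM to 32 to 44.8 CPM (median 37.3), an interaction of -1.07 ± 0.23 (adjusted p = 0.0377). Acat2 went in the ONP from 182, 216, 197 and 209 CPM to 90.2 to 157 CPM (median 120) and in the ONH from 59.5, 71.1, 60.5 and 71.9 CPM to 59.1 to 81.8 CPM (median 76.7), an interaction of -0.82 ± 0.19 (adjusted p = 0.0486). Both genes narrowed the gap as Cyp51 did, but their calls depended on the fit. They were kept in 6 and 3 of the 22 fits without 1 library, reaching an adjusted p of 0.13 and 0.169 without ONP 7 day library 6. Among 11 other settings of the fit, Mvd was called in 7 and Acat2 in 2. Uncalled members with small p-values included Msmo1 (-0.89, adjusted p = 0.0536) and Hmgcs1 (-0.95, adjusted p = 0.0812). Scd1, a fatty acid desaturase gene outside the list, rose in the ONH (218 to 254 CPM to 282 to 460 CPM) and fell in the ONP (343 to 434 CPM to 251 to 414 CPM), an interaction of -0.96 ± 0.20.

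Summed over the list, the 7 day ONP held 5890 to 6650 CPM and the 30 day ONP 2520 to 4230 CPM, while the ONH held 1510 to 2230 CPM at 7 days and 1610 to 2170 CPM at 30 days. The days were separate in the ONP and overlapped in the ONH.

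Markers of oligodendrocytes moved in the same direction as the cholesterol genes. These cells were not meant to carry the tag, but their markers were high. In the 7 day ONP the 20 oligodendrocyte markers summed to 86200 to 113000 CPM, and the 14 astrocyte markers to 17400 to 24300 CPM. All 20 oligodendrocyte markers had a negative interaction, 12 of them with an unadjusted p under 0.05, and 1 was called (5%, against 0.573% of all genes). The summed level of the 20 markers was 19600 to 37200 CPM in the 7 day ONH, 14500 to 43400 CPM in the 30 day ONH, 86200 to 113000 CPM in the 7 day ONP and 27400 to 88300 CPM in the 30 day ONP. The ONP fell from a median of 95200 to 56300 CPM with 1 30 day library inside the 7 day range, and the ONH overlapped between days. The median interaction of the list was -0.87 (ONH log2FC 0.09, ONP log2FC -0.84). In these precipitates of pooled tissue, fewer cells of a type, less RNA per cell and less untagged RNA carried along cannot be told apart.

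Mal, which encodes a proteolipid of compact myelin, was the called member. It was 404, 536, 619 and 586 CPM in the 7 day ONH, 490 to 884 CPM (median 687) in the 30 day ONH, 1680, 2020, 1890 and 2110 CPM in the 7 day ONP and 721 to 1500 CPM (median 1080) in the 30 day ONP. It had its highest level in the 7 day ONP, above all 30 day ONP libraries. The interaction was -1.17 ± 0.25 (adjusted p = 0.0312), called in 9 of 22 fits without 1 library and at 0.12 without ONP 7 day library 6. Uncalled markers included Opalin (-1.60, adjusted p = 0.0574), Tspan2 (-1.23, 0.113) and Mbp (-0.72, 0.592). With a score of the 20 markers as a covariate, an alternative added after seeing the data, 99 genes were called (21 positive, 78 negative), of which 40 were among the 96. Of the called cholesterol genes, Cyp51 kept its call in this fit, and Mvd and Acat2 did not. The score contains Mal and itself fell in the ONP, from a mean of 9.89 to 9.03, against 7.83 and 7.94 in the ONH (log2 CPM). Using it as a covariate can thus remove part of the interaction itself. Kept and lost calls do not show which genes reflect oligodendrocyte RNA, and that part was not tested.

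Other called genes with high levels in the 7 day ONP shared the fall, without being on the list. Lgi3, a secreted leucine-rich protein gene, went in the ONP from 596, 707, 630 and 807 CPM to 262 to 464 CPM (median 348) and in the ONH from 161 to 248 CPM to 161 to 302 CPM, an interaction of -1.07 ± 0.24. Nfasc, which encodes the adhesion molecule neurofascin of nodes and paranodes, went from a mean of 364 to 176 CPM in the ONP and from 78.6 to 88.9 CPM in the ONH (-1.23). The kinesin genes Kif1b and Kif13b (-0.88 and -1.30), the microtubule-associated protein gene Map1a (-1.44) and the cytoskeletal linker gene Dst (-1.05 ± 0.18) were called in the same direction. With the oligodendrocyte score as a covariate the interaction of Lgi3 was -0.55 (adjusted p = 0.129), and Nfasc, Kif1b, Kif13b and Map1a were not called, while Dst was. For the reason given above, these calls do not sort the genes by their source. The call of Lgi3 was kept in 7 of the 22 fits without 1 library, with the highest adjusted p of 0.151 without ONP 7 day library 6. Dst fell in the ONP from 128, 98.4, 142 and 113 CPM to 44.6 to 56.5 CPM (median 51.5) and was nearly level in the ONH, at 64.9 to 96.1 CPM and 63.4 to 86.5 CPM.

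**Figure D4:**
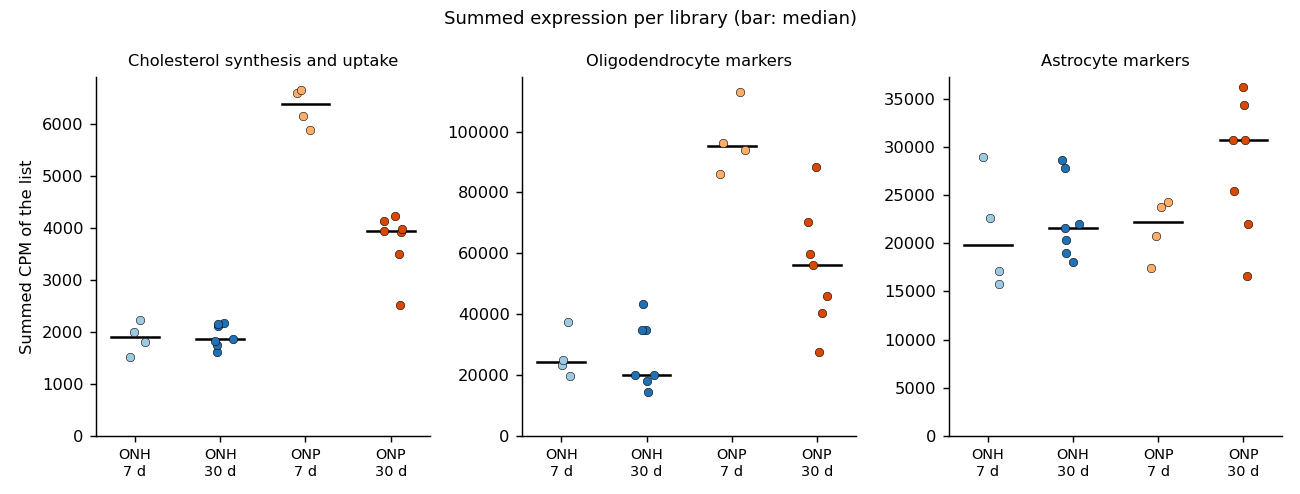
Summed CPM per library (y axis, from 0) of the cholesterol list, the oligodendrocyte markers and the astrocyte markers in the 4 groups (x axis), with the group median as a bar. The cholesterol sum falls in the ONP from 5890 to 6650 CPM at 7 days to 2520 to 4230 CPM at 30 days and stays level in the ONH, and the oligodendrocyte sum has the same shape with wider scatter. The astrocyte sums overlap in all groups.

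Qk was the called gene with a change in the ONH and little in the ONP that had the smallest p-value. It encodes quaking, an RNA-binding protein needed for myelination and present in astrocytes. In the ONH it was 328, 364, 342 and 271 CPM at 7 days and 456 to 659 CPM (median 545) at 30 days. In the ONP it was 634, 640, 565 and 638 CPM at 7 days and 493 to 587 CPM (median 537) at 30 days. The ONH rose without overlap to the level of the ONP, and the gap of 0.92 at 7 days came to -0.05 at 30 days on the log2 scale. The interaction was -0.97 ± 0.15 (adjusted p = 0.00454; chr17:10202601-10319854). The translation initiation factor gene Eif4b (-0.62) and the mitochondrial glutamate carrier gene Slc25a22 (0.94) were the other called genes above the detection limit that moved in the ONH alone. Their calls were kept in 5 and 3 of the 22 fits without 1 library. Neither was called when the 30 day replicate numbers were fitted as fixed effects.

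Over all 96 called genes, the 7 and 30 day libraries of the ONP did not overlap in 75, against 11.3% of all genes tested. Those of the ONH did not overlap in 12, against 2.19%. The genes were called from these same libraries, so the counts describe them and are not separate evidence. The gap between the regions passed an unadjusted p of 0.05 in 35.2% of all genes at 7 days and 44% at 30 days. By this gap, 24 genes were higher in opposite regions at the 2 days, 12 widened a gap, 15 narrowed it, 30 had a gap past an unadjusted p of 0.05 at 7 days only and 15 at 30 days only.

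The list of Wnt, BMP and TGF-beta pathway genes held 4 called genes of 55 tested (7.27%, against 0.573% of all genes), 3 negative and 1 positive. Wif1, a secreted Wnt inhibitor, fell in the ONP from 61.9, 38.3, 26.6 and 54.2 CPM to 3.17 to 13.2 CPM (median 10.2). Its ONH levels were 46.5, 57.9, 43.3 and 67.2 CPM at 7 days and 42.1 to 75.7 CPM (median 47.3) at 30 days. For Wif1 the log2 difference between the regions went from -0.25 at 7 days to -2.75 at 30 days, and the interaction was -2.50 ± 0.44 (adjusted p = 0.0103; chr10:121033960-121100650).

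Ltbp1, which tethers latent TGF-beta to the matrix, fell in the ONP from 67.5, 55, 59.4 and 49.8 CPM to 17.7 to 32.1 CPM (median 23.2) and stayed at 91.2 to 155 CPM and 94 to 165 CPM in the ONH (-1.30 ± 0.27, adjusted p = 0.0312). The Wnt receptor gene Fzd9 went the other way. It rose in the ONP from 44.8, 32.4, 84.2 and 58.1 CPM to 83.1 to 202 CPM (median 120), and in the ONH it went from 60.8, 67.3, 44.4 and 24.1 CPM to 26.3 to 45 CPM (median 30.7), an interaction of 1.85 ± 0.40 (adjusted p = 0.0345). Calls of Ltbp1 and Fzd9 were kept in 12 and 9 of the 22 fits without 1 library, and their highest adjusted p-values were 0.0908 without ONP 7 day library 1 and 0.0933 without ONP 7 day library 2. The list as a whole had 33 members above 0 and 22 below, with 6 positive and 7 negative at an unadjusted p under 0.05 (Wnt5a -1.23, Id4 2.15).

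Among 57 tested members of the axon guidance list 2 were called, and 8 were negative and 1 positive at an unadjusted p under 0.05, against 0.573% called, 1175 negative and 928 positive of the 16748 genes tested.
Sema4f encodes a transmembrane semaphorin. Its ONP levels were 49.4, 37.1, 29.8 and 36.3 CPM at 7 days and 5.31 to 13.3 CPM (median 11.7) at 30 days, and its ONH levels were 51.2, 58.5, 35.6 and 30.4 CPM at 7 days and 29.3 to 52.2 CPM (median 34.3) at 30 days. The ONP alone had separate days, and the interaction was -1.69 ± 0.34 (adjusted p = 0.0276), kept in 18 of 22 fits without 1 library and at 0.083 without ONP 7 day library 1. The netrin receptor gene Unc5c fell in the ONP from 18.9, 19.2, 25.8 and 33.5 CPM to 10.9 to 18.7 CPM (median 11.5) and rose in the ONH from 23, 18.3, 26.4 and 8.87 CPM to 22.4 to 33.6 CPM (median 27.2), an interaction of -1.48 ± 0.33. Its adjusted p was 0.0377, and the call was kept in 5 of 22 fits without 1 library (0.137 without ONP 7 day library 6). An uncalled member in the other direction was Nrp2 (0.75).

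Potassium channels gave 1 call in 27, Kcnj10 (3.7%, against 0.573% of all genes). Their median log2FC was 0.35 in the ONH and -0.06 in the ONP. At an unadjusted p under 0.05, 7 were negative and 1 was positive. The voltage-gated channel gene Kcna6 (-0.89, adjusted p = 0.0854) and the M-current channel gene Kcnq3 (-0.84, adjusted p = 0.178) were examples.

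Further called genes fell in the ONP while their days overlapped in the ONH. Mgarp, a mitochondrial protein gene, was 236, 248, 281 and 163 CPM in the 7 day ONH and 160 to 400 CPM (median 317) in the 30 day ONH, but 18.9, 9.93, 6.03 and 13.2 CPM in the 7 day ONP and 2.76 to 4.56 CPM (median 3.09) in the 30 day ONP. The interaction was -2.08 ± 0.36 (adjusted p = 0.0103; chr3:51388412-51396738). Flt3, a receptor tyrosine kinase gene, was 14.5 to 19.6 CPM and 8.65 to 35.3 CPM in the ONH at 7 and 30 days, and went in the ONP from 1.59, 1.97, 0.411 and 3.45 CPM to 0 to 0.525 CPM (median 0.214). Its interaction was -2.99 ± 0.69 (adjusted p = 0.0471), and the call was kept in 4 of 22 fits without 1 library, rising to 0.164 without ONP 7 day library 6. The related receptor gene Kit (-2.11) went from a mean of 28.2 to 6.59 CPM in the ONP and from 14.2 to 14.4 CPM in the ONH. Fam189b (-1.19 ± 0.21) went from a mean of 14.1 to 6.1 CPM in the ONP and from 24.2 to 24 CPM in the ONH.

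In 5 called genes a group was at or below 3 counts in every library, and no fold change is given for them. Slc36a2, an amino acid transporter gene, was at 0 in all 7 day ONP libraries and at 0 to 1.16 CPM (median 0.24) in the 30 day ONP, and it was 3.72, 4.43, 1.2 and 2.64 CPM in the 7 day ONH and 0 to 1.03 CPM (median 0.761) in the 30 day ONH. The proteinase inhibitor gene Pi15 was 0.0613, 0, 0 and 0.0375 CPM in the 7 day ONP and 0.244 to 2.06 CPM (median 0.56) in the 30 day ONP, with 0.112 to 0.856 CPM and 0 to 0.45 CPM in the ONH at 7 and 30 days. Both were thus detected in the ONP mainly at 30 days. Lamb3, a laminin chain gene, was at 0 in all 7 day ONH libraries and at 0 to 0.389 CPM at 30 days, while the ONP went from 1.04, 0.828, 1.4 and 0.75 CPM to 0 to 0.32 CPM. Uprt was at 0 in all 7 day ONH libraries and at 0.0802 to 1.51 CPM at 30 days, and the cadherin gene Fat3 was at 0, 0, 0 and 0.112 CPM and then at 0.151 to 3.35 CPM. In the ONP both overlapped between days (Uprt 0.0613 to 2.06 CPM and 0.155 to 1.29 CPM, Fat3 0.573 to 4.72 CPM and 0.386 to 2.2 CPM). A count of 0 allowed up to 0.0897 to 0.191 CPM in these libraries (3 counts, counting error only).

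Sncg, which encodes gamma-synuclein of retinal ganglion cell axons, was the called member of the neuron list (13 tested, 7.69% called, against 0.573% of all genes). It rose in the ONP from 1.84, 0.764, 2.05 and 1.09 CPM to 3.92 to 6.21 CPM (median 5.38) and was 2.91, 2.09, 8.22 and 5.22 CPM and then 0.993 to 4.67 CPM (median 3.01) in the ONH. The ONP days did not overlap and the ONH days did. The interaction was 2.66 ± 0.56 (adjusted p = 0.0312), kept in 16 of 22 fits without 1 library and at 0.0892 without ONP 7 day library 6. The other list members at an unadjusted p under 0.05 were negative, among them the neurofilament genes Nefh (-2.37) and Nefm (-2.03).

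Several lists that define the astrocyte response gave no call, where 0.573% of all genes tested were called. At that share, lists of this size hold few calls or none, so no call does not show equal changes. None of the 36 complex I subunits, 41 subunits of complexes II to V, 80 cytosolic ribosomal proteins, 39 interferon response genes, 32 heat shock and chaperone genes, 13 pan-reactive, 13 A1 and 12 A2 astrocyte genes was called. At an unadjusted p under 0.05, counts in these 8 lists were 0, 1, 1, 0, 6, 1, 2 and 1, against 12.6% of all genes. Ribosomal proteins had a median log2FC of 0.62 in the ONH and 0.26 in the ONP, and 78 of the 80 interactions lay below 0 with a median of -0.37, which was -0.65 without ONH 7 day library 5 and -0.19 without ONH 30 day replicate 6. For complex I the medians were 0.55 and 0.41, and its median interaction of -0.144 was 0.011 when counts were scaled by library size alone and -0.426 without ONH 7 day library 5. The interferon list had medians of -0.68 and -0.50 and a median interaction of 0.001, from -0.145 without ONP 30 day replicate 7 to 0.408 without ONP 7 day library 1.

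The 13 subunits encoded by the mitochondrial genome differed from the nuclear ones in their medians, with a log2FC of 0.17 in the ONH and -0.39 in the ONP. Of these, 12 had a negative interaction and 3 an unadjusted p under 0.05 (mt-Nd4l -1.46, mt-Nd1 -1.13 and mt-Co1 -0.90), and none was called. Their sum was 1810 to 3590 and 2220 to 4120 CPM in the ONH and 1960 to 2710 and 724 to 2850 CPM in the ONP at 7 and 30 days, so that the 30 day ONP reached the lowest values and overlapped with its 7 day range.

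The called genes Cyp51, Acat2, Mgarp, Wif1 and Slc36a2 are also named by the study in its comparisons of regions or days. The study places Cyp51 and Acat2 among its most reduced ONH genes, but against untreated mice, and reports lower cholesterol synthesis in both regions. It also describes an ONH gene cluster, enriched for cholesterol synthesis, that fell late. No untreated mice were analysed here, so a fall from that baseline was not tested. Between 7 and 30 days the ONH log2FC was 0.03 ± 0.14 for Cyp51 and 0.14 ± 0.13 for Acat2. The other genes chosen here because the study discusses them did not pass the interaction test. Gfap, the intermediate filament gene of astrocytes, ranged from 8790 to 19400 CPM in the 7 day ONH, 9060 to 16800 CPM in the 30 day ONH, 9630 to 15200 CPM in the 7 day ONP and 10800 to 23100 CPM in the 30 day ONP, an interaction of 0.53 ± 0.32 (adjusted p = 0.521). The calcium-binding protein gene S100b rose in both regions (0.82 ± 0.18 and 0.65 ± 0.18), an interaction of -0.17 ± 0.25. Cartpt, which encodes a neuropeptide, was 844 to 2740 CPM and 904 to 2480 CPM in the ONH and 3.37 to 33.7 CPM and 1.81 to 7.21 CPM in the ONP, an interaction of -2.10 ± 0.67 that did not pass adjustment (adjusted p = 0.171). Interactions were -0.97 ± 0.70 for the lipocalin gene Lcn2, -0.74 ± 0.51 for the heat shock gene Hspa1b, -0.28 ± 0.43 for Cox5b and -0.30 ± 0.34 for Ndufc2, with adjusted p-values of 0.595 to 0.866. The keratin genes Krt5 (3.36 ± 1.79, from 1.45 to 5.32 without single libraries) and Krt14 (0.07 ± 1.23) were at 0 or close to it in the 30 day libraries (0 to 2.8 and 0 to 1.31 CPM), and the 16 tested keratins gave no call.

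**Figure D5:**
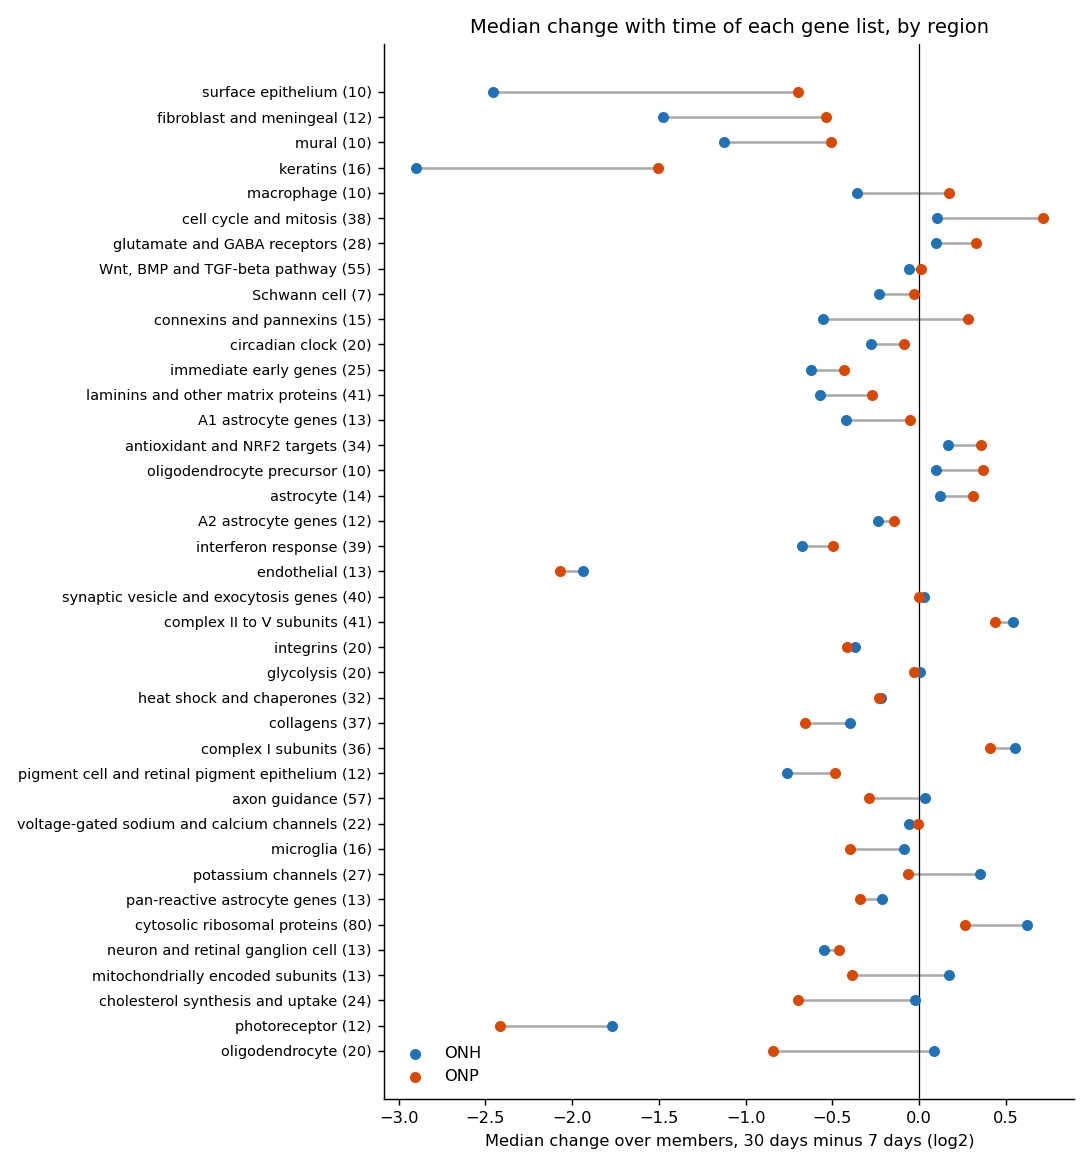
Median log2FC for 30 vs 7 days (x axis) over the members of each gene list (y axis, number tested in brackets) in the ONH (blue) and the ONP (orange), joined by a line and ordered by median interaction. Oligodendrocyte markers (0.09 and -0.84) and cholesterol genes (-0.02 and -0.70) lie at the lower end, and keratins, surface epithelium, fibroblast and mural markers lie at the upper end with falls in both regions that are larger in the ONH.

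Marker lists of other cells differed between days as well. The 10 tested surface epithelium markers had a median log2FC of -2.45 in the ONH and -0.70 in the ONP, with sums of 20.3 to 330 CPM and 12.3 to 48.1 CPM in the ONH and 16.9 to 92 CPM and 11.7 to 66.2 CPM in the ONP at 7 and 30 days. The 12 fibroblast and meningeal markers had medians of -1.48 and -0.54 and the 10 mural markers -1.13 and -0.51. Endothelial markers (13 tested) had medians of -1.94 in the ONH and -2.07 in the ONP, with sums of 72.8 to 640 CPM and 46.8 to 192 CPM in the ONH and 243 to 299 CPM and 24.5 to 182 CPM in the ONP, where the days were separate. Photoreceptor markers (12 tested) had medians of -1.77 and -2.41. Microglia markers (16 tested) had a median sum of 3360 CPM in the 7 day ONP and 649 CPM in the 30 day ONP, with a highest 30 day value of 8030 CPM. None of these lists gave a call, where 0.573% of all genes tested were called. The part of these cells in the called genes was not tested. The 14 astrocyte markers had medians of 0.12 and 0.31 and sums of 15800 to 28900 CPM and 18100 to 28700 CPM in the ONH and 17400 to 24300 CPM and 16600 to 36300 CPM in the ONP.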

How the data were processed

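mRNA bound to HA-tagged ribosomes was measured by RNA-seq in 22 libraries of 4 groups. The authors aligned reads with STAR (2.6.1d) to mm10, quantified them with Salmon (0.14.2) on Ensembl annotation through tximport, and deposited estimated counts per gene, which were rounded to whole numbers here. A variance-stabilized table was also deposited and not used. The authors compared groups in pairs with DESeq2.

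Genes were kept by edgeR's filterByExpr over the groups, counts were TMM-normalized, and the interaction was tested with edgeR's quasi-likelihood F test (4.0.16, robust, R 4.3.3) over all 22 libraries, with Benjamini-Hochberg adjustment over the 16748 genes kept and a threshold of 0.05. The SE is the log2 value divided by the square root of F. All adjusted p-values are from this fit unless another is named. The comparisons within regions and within days use the same libraries as the interaction. Each library is a pool of mice, and the main fit treats the libraries as independent. By the methods both regions were cut from the same animals, which this fit leaves out, so p-values measure the spread between libraries. Total counts were 16292489 to 33307092, and 3 counts equal 0.0897 to 0.191 CPM. The code was tested on 3 sets of simulated counts. In these, 13.4 to 22.4% of 2-fold interactions were called, 64.2 to 67.2% of 4-fold and 78.8 to 81.8% of 8-fold interactions.

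The 7 day columns could be tied to a region and day but not to single samples, so only 30 day libraries share usable replicate numbers, and these are not stated to mark a shared pool. Alternatives were DESeq2 (1.42.0), limma-voom (3.58.1), other scalings and filters, a replicate block, and each library left out. A fit without the robust option and a fit with an oligodendrocyte score were chosen after seeing the data. Full values are given for the genes with the smallest p and the largest values in each direction, for called genes on a gene list, for opposite changes, for the most abundant called genes and for genes the study discusses. The members and lists were chosen with earlier results of these data known. Gene positions are GENCODE on GRCm38, which held 16743 of the genes tested, and promoters are from RefSeq on GRCm38.p6. A few genes that this rule names are not reported here.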

Additional observations from a re-analysis of the deposited data

Results flagged for a closer look

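The change with time differed between the ONH and the ONP, by the test of the difference itself, in 96 of the 16748 genes tested. Within groups, single libraries stood apart from the rest by Dixon's criterion on the log2(CPM + 1) scale in 9 of 176 groups examined (44 genes in 4 groups), or 5.11%, and chance alone gives about 1 in 20.

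In the ONP at 7 days, library 5 held 0.657 CPM of Pax8, which was 0 in the others, and 565 CPM of Qk, against 634 to 640 CPM. In the ONP at 30 days, replicate 7 held 123 CPM of Cyp51 (others 181 to 224), replicate 4 held 3.92 CPM of Sncg (others 5.36 to 6.21), replicate 5 held 18.7 CPM of Unc5c (others 10.9 to 12.4) and replicate 3 held 33 CPM of Ccp110 (others 46.1 to 59.1). In the ONH, 7 day library 6 held 0.112 CPM of Fat3 (0 in the others) and 40.1 CPM of Ppp1r12a (others 47.5 to 48.4), and 30 day replicate 4 held 10.2 CPM of Synpr (others 2.33 to 4.07).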

How the results depend on the processing

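Signs held and counts did not. Held signs are not separate evidence, because the genes were called from the same libraries. All 96 genes kept their sign in every fit that tested them (85 of them with at least 10 counts in every library). Calls numbered 409 with DESeq2 (175 positive, 234 negative, 118 with opposite changes), which included all 96, and 55 with limma-voom and quality weights (7, 48 and 20), 48 of them shared. They numbered 68 when scaled by library size only (36, 32 and 23) and 49 with no filter beyond 1 count (14, 35 and 19). The replicate block over 30 day numbers gave 115 calls (26, 89 and 44) as fixed effects, 72 of them among the 96, and 161 (22, 139 and 66) with duplicateCorrelation (r = 0.196), 81 of them among the 96. Same-numbered libraries deviated together at r = 0.079 to 0.539 (2000 genes), and the best match was the own number in 4 of 7, so the numbers are no more than a hint of pairing. With RLE scaling, at least 10 counts in every library, mitochondrial genes left out and no robust option there were 74, 97, 79 and 91. Without single libraries, calls ranged from 22 to 322, positive calls from 4 to 95, negative calls from 14 to 227 and opposite changes from 6 to 135. Why these counts moved was not tested. Named genes that lost their call with the fixed-effect block were Acat2, Arhgef16, Celsr2, Eif4b, Fat3, Homer2, Lamb3, Mcam and Mvd. The others were Nectin3, Slc25a22, Slc36a2, Sncg, Socs2, Unc5c, Uprt and Wnk1.

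The uncalled interaction of Krt14 (0.071) turned to -0.715 with limma-voom, to -0.16 and -0.677 with the replicate block and to -0.366 with the oligodendrocyte score, and ranged from -1.923 to 1.231 without single libraries. That of Krt5 (3.355) was 0.944 with the oligodendrocyte score and 1.273 with duplicateCorrelation. That of Gfap (0.526) was -0.031 with the oligodendrocyte score. With 4 libraries at 7 days in each region, leaving out any of ONP libraries 1, 2 and 6 ended most calls, and low genes were limited by 0 counts.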

Other observations

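The remaining called genes, grouped here by known role after their values were seen, had varied roles. The junction gene Jam3 (-0.94), the adhesion genes Mcam (-0.91) and Pcdh17 (-1.50), and the polarity genes Celsr2 (-1.32), Prickle1 (-1.27) and Daam1 (-1.56) were more negative in the ONP, while the adhesion gene Nectin3 (2.19) was more positive. Other negative genes were the remodeler Chd4 (-1.09), the methylcytosine dioxygenase Tet3 (-1.45), the NF-kappaB inhibitor Nfkbia (-1.14), the kinase Wnk1 (-1.10) and the transporter Slc12a2 (-1.61). In this order, their calls were kept in 15, 6, 8, 6 and 3 of the 22 fits without 1 library. Positive genes included the scaffold gene Homer2 (1.73), the mitochondrial enzyme gene Clybl (0.96) and the exchange factor gene Arhgef16 (3.64).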
